A study of Pleurotus ostreatus with 9 samples.

Results

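Fungal cell wall enzyme genes were described in Pleurotus ostreatus mycelium; the species is the cultivated oyster mushroom, which rots wood. The members were every gene whose deposited product description names 1 of a fixed set of carbohydrate-active enzyme families: glycoside hydrolase (GH) families that act on fungal wall polymers, carbohydrate esterase family 4 (CE4), glycosyltransferase families 2 and 48 (GT2, GT48) and a carbohydrate-binding module. This rule found 90 of the 10682 genes in the deposited table, in 15 families, and 82 of the 90 had a mean level of at least 1 FPKM (a read level scaled for gene length and library depth) and could be tested. No measured value entered the rule.

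The fungal cell wall is a layered network in which chitin, a polymer of N-acetylglucosamine, is linked to beta-glucans, polymers of glucose, and to mannoproteins. Chitin is extended at the plasma membrane by chitin synthases from UDP-N-acetylglucosamine, and beta-1,3-glucan by glucan synthase from UDP-glucose. Chitin deacetylases convert chitin to chitosan, while chitinases, glucanases and transglycosidases cut and rejoin the polymers as hyphae extend and branch.

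Poly(A) RNA of 9 shaken cultures of strain GEMB-PO1 was sequenced, in 3 groups of 3. All cultures grew in a medium of glucose, yeast extract and peptone at 28 °C and were harvested on day 3. The control had no chemical added, a second group received butyl benzyl phthalate (BBP), a plasticizer, and the last group received BBP plus piperonyl butoxide (PB) at 1 mM, a compound that blocks cytochrome P450 enzymes. The BBP dose reads 50 mg/L in one label field and 200 mg/L in another, so no dose is attached here. Cultures with PB and no BBP were not analysed here, so an action of PB itself and one on BBP turnover cannot be told apart, and no vehicle is named for the control.

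Total counts per library ran from 38098599 to 49161706. Levels are given as FPKM for the 3 replicates of a group in order, changes are log2 fold changes ± SE fitted on the counts with edgeR, and a gene is said to have risen or fallen only where its Benjamini-Hochberg adjusted p over all 9399 tested genes was under 0.05. Product names are the annotation's, not measured activities. The 3 comparisons share libraries and are not independent of each other. In bulk RNA, fewer cells of a type and less RNA per cell cannot be told apart.

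The label held for most but not all members. Of the 90 members, 77 belonged to families of chitin or glucan enzymes. The other 13 were GH76 and GH92 genes (mannan and mannose-containing glycans), a GH85 gene (an endoglycosidase of N-glycans), 3 GT2 genes without a chitin synthase number and 1 carbohydrate-binding module gene, of family 50. Of the 12 GT2 genes, 9 carried the chitin synthase number, and 10 of the 11 CE4 genes carried that of chitin deacetylase. A total of 9 of the 28 GH16 genes carried an enzyme number of an unrelated reaction, 2.4.2.19, and are described here by family only.

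Cell wall enzyme genes were expressed at a wide range of levels. Their mean FPKM over the 9 libraries ran from 0.0296 to 1787 with a median of 20.6, beside 15.9 for all genes, and 23 members were at 100 FPKM or more. A total of 44 of the 82 tested members, or 53.7%, were called in at least 1 comparison, beside 48.2% of all tested genes, and 38 were called in none.

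With BBP alone, 4 members rose and 11 fell, 15 of 82 or 18.3%, beside 18.4% of all tested genes (10.1% higher, 8.33% lower), so the share was near that of the transcriptome. Adding PB to BBP raised 9 members and lowered 14, or 28.0%, beside 20.4% of all tested genes (9.98% higher, 10.5% lower). In BBP with PB against control, 13 rose and 26 fell, or 47.6%, beside 41.1% of all tested genes (19.9% higher, 21.2% lower). The median log2 change of the members was -0.05, -0.10 and -0.20 in these comparisons, and that of all tested genes was -0.01, -0.01 and -0.04. The split depended on the scaling: when scaled by total counts alone, 1 rose and 14 fell with BBP, 8 rose and 18 fell on adding PB, and 9 rose and 40 fell in BBP with PB against control, while the median of all genes moved to -0.11, -0.12 and -0.26. The calls with BBP alone were the least stable, since 2 of 15 held under every alternative tried, against 10 of 23 on adding PB and 27 of 39 for BBP with PB against control.

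The balance of rises and falls could turn when 1 library was left out in the first 2 comparisons. With BBP alone, 6 members rose and 5 fell without BBP replicate 2, so most calls were then rises. Over all tested genes 837 rose and 512 fell in that fit, and rises outnumbered falls in all 9 such fits. In the other fits of that comparison falls of members outnumbered rises. Without control replicate 3, 4 rose and 10 fell, and without control replicate 2, 1 rose and 4 fell. Without control replicate 1 or BBP replicate 1, 1 rose and 6 fell, and without BBP replicate 3, 1 rose and 7 fell. Without BBP with PB replicate 1 or 2, 2 rose and 7 fell, and without BBP with PB replicate 3, 2 rose and 5 fell. On adding PB, rises of members outnumbered falls in 5 fits. They were 8 and 6 without BBP replicate 1 or BBP with PB replicate 1, and 8 and 7 without BBP replicate 3. Without BBP with PB replicate 2 they were 7 and 4, and without BBP with PB replicate 3 they were 7 and 5. Over all tested genes these 5 fits gave 515 to 648 rises and 536 to 717 falls. Without control replicate 2, 9 members rose and 9 fell, and falls outnumbered rises in the remaining fits. No majority of falls is therefore drawn from that comparison. In BBP with PB against control falls outnumbered rises in all 9 such fits, from 20 to 28 falls beside 11 to 14 rises. Over all tested genes these fits gave 1428 to 2165 falls beside 1449 to 2004 rises.

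**Figure D1:**
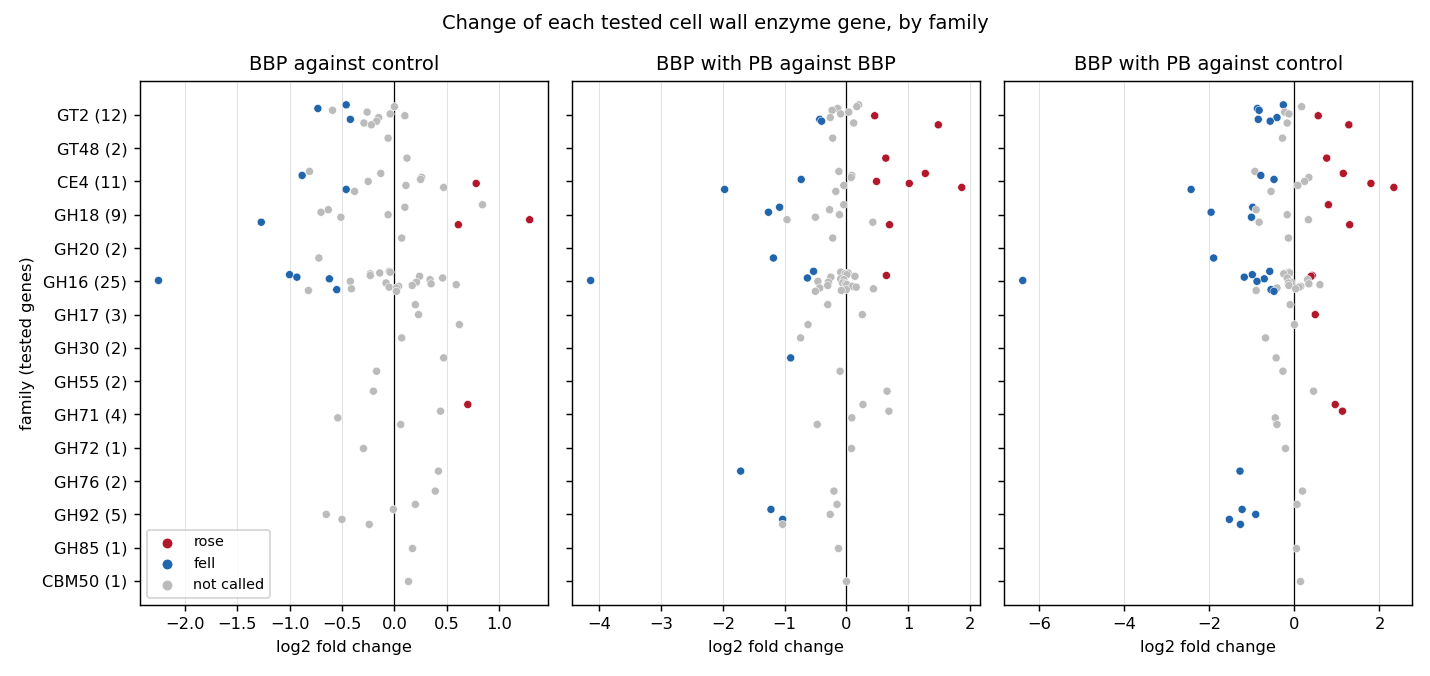
Each point is 1 of the 82 tested cell wall enzyme genes, placed by its log2 fold change (x axis) in its family (y axis, number of tested genes in brackets), with 1 panel for each comparison. Red points rose, blue points fell and grey points were not called at an adjusted p under 0.05. Called genes of both directions stand in the same family, as in CE4 and GT2, and the right panel has the most, 13 that rose and 26 that fell.

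Genes for the first and last steps of chitin precursor synthesis fell in both treated groups. UDP-N-acetylglucosamine is made from fructose 6-phosphate by an aminotransferase, an acetyltransferase, a mutase and a uridylyltransferase, and these 6 genes, which are not members, were taken by enzyme number. The aminotransferase gene PLEOSDRAFT_1062168, for the step that commits sugar to the pathway, was at 873, 708 and 401 FPKM in control, 221, 153 and 231 with BBP, and 285, 199 and 212 with BBP and PB. Every control library was above every treated library, though control replicate 3 lay far below the other control libraries. It fell by 1.63 ± 0.31 with BBP (adjusted p = 0.00695) and by 1.32 ± 0.307 in BBP with PB against control (adjusted p = 0.00722), and both calls held under every alternative. Without control replicate 3 these changes were -1.92 and -1.61.

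The uridylyltransferase genes, which make the final nucleotide sugar, moved in the same direction. PLEOSDRAFT_1092461 was at 129, 141 and 101 FPKM in control, 55, 43.3 and 51.7 with BBP, and 75.9, 62.0 and 56.1 with BBP and PB. Again all control libraries were above all treated libraries. It fell by 1.2 ± 0.179 with BBP (adjusted p = 0.00234) and by 0.73 ± 0.177 in BBP with PB against control (adjusted p = 0.00911). Its difference on adding PB, 0.48 ± 0.177, was not called (adjusted p = 0.0842), although it passed without control replicate 3 (adjusted p = 0.0347). The second such gene, PLEOSDRAFT_1107060, changed by -1.21 with BBP and by -0.77 in BBP with PB against control (adjusted p = 0.00288 and 0.00858). These 2 genes lie on different scaffolds and have nearly equal levels in each library, so reads shared between near-identical copies would make them 1 observation, which the counts cannot show. The acetyltransferase gene PLEOSDRAFT_1068271 was not called with BBP (log2 change -1.09 ± 0.395, adjusted p = 0.0811), its control libraries being at 785, 599 and 275 FPKM. Neither mutase gene was called in any comparison. Over the list, 3 of 6 genes fell with BBP, beside 8.33% of all tested genes, and 3 of 6 in BBP with PB against control, beside 21.2%, the uridylyltransferase pair counted as 2 genes. On adding PB to BBP 0 of 6 were called, 2 at an unadjusted p under 0.05 and 0 with DESeq2 or limma.

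Among the 12 GT2 genes, 3 fell with BBP, 2 rose and 2 fell on adding PB, and 2 rose and 6 fell in BBP with PB against control. These were 25.0%, 33.3% and 66.7% of the family, beside 18.4%, 20.4% and 41.1% of all tested genes. Scaled by total counts alone, 2 of the 12 rose and 9 fell in BBP with PB against control. Of the 9 with the chitin synthase number, 2 fell with BBP, and 1 rose and 1 fell on adding PB. In BBP with PB against control 1 of the 9 rose and 4 fell. The shares called of these 9 were 22.2%, 22.2% and 55.6%. The 9 with the chitin synthase number had a summed level of 821 to 1081 FPKM in the control libraries, 663 to 753 with BBP and 616 to 658 with BBP and PB, so that the 3 groups did not overlap. Without PLEOSDRAFT_1054937, a choice made after seeing the data, the sums were 563 to 702, 475 to 531 and 458 to 472 FPKM. They still did not overlap, though the treated groups came as near as 475 and 472 FPKM. Such sums carry only the depth and length scaling of FPKM. Scaled by total counts alone, the median log2 change of all tested genes was -0.11, -0.12 and -0.26 in the 3 comparisons. In the main fit the median log2 change of the 9 genes on adding PB was -0.09.

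PLEOSDRAFT_1054937 was the most expressed chitin synthase gene, at 425, 379 and 258 FPKM in control, 223, 188 and 192 with BBP, and 187, 163 and 158 with BBP and PB. Each library of a group lay below each library of the group before it, by as little as 188 beside 187 FPKM between the treated groups. Its change on adding PB, -0.14 ± 0.204, was not called (adjusted p = 0.662). It fell by 0.87 ± 0.206 in BBP with PB against control (adjusted p = 0.0078). Its fall with BBP, 0.73 ± 0.205 on the log2 scale (adjusted p = 0.0353), held only without control replicate 3 among the fits that left out 1 library, and the adjusted p was 0.0507 to 0.0924 in the other 8. PLEOSDRAFT_1058237 was at 97.3, 109 and 62.4 FPKM in control, 56.9, 56.3 and 53.9 with BBP, and 49.3, 41.6 and 41.1 with BBP and PB. It fell by 0.83 ± 0.201 in BBP with PB against control (adjusted p = 0.0091), and its change with BBP of -0.59 ± 0.201 was not called (adjusted p = 0.0661) unless control replicate 3 was left out (-0.83, adjusted p = 0.00199).

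PLEOSDRAFT_1087442 stepped down in both comparisons, from 40.4, 54.3 and 45.2 FPKM in control to 35.2, 32.4 and 29.0 with BBP and 24.8, 20.5 and 21.5 with BBP and PB, with no overlap between groups. It fell by 0.85 ± 0.13 in BBP with PB against control (adjusted p = 0.000766). The single steps, -0.42 with BBP and -0.43 on adding PB, were near the threshold (adjusted p = 0.0469 and 0.044). The first held only without control replicate 3 among the fits without 1 library, and the second was lost without BBP replicate 1 or 2, BBP with PB replicate 2 or 3, or control replicate 1 or 2 (adjusted p = 0.0515 to 0.161). PLEOSDRAFT_1065201 fell by 0.41 ± 0.114 in BBP with PB against control (adjusted p = 0.016), a call lost without BBP with PB replicate 1, BBP with PB replicate 3 or control replicate 2 (adjusted p = 0.055, 0.0595 and 0.0699).

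A single chitin synthase gene rose. PLEOSDRAFT_28823 was at 1.56, 1.98 and 2.04 FPKM in control, 1.48 ± 0.418 (mean ± SD, n = 3) with BBP, and 3.67, 3.90 and 4.09 with BBP and PB. The libraries with PB were above all others, at a level far below that of the other members of the family. It rose by 1.49 ± 0.206 on adding PB (adjusted p = 0.00109) and by 1.28 ± 0.204 against control (adjusted p = 0.000992). PLEOSDRAFT_1036823, PLEOSDRAFT_1060345, PLEOSDRAFT_1093142 and PLEOSDRAFT_1063335 were not called in any comparison, with log2 changes from -0.29 to 0.17. Scaled by total counts alone PLEOSDRAFT_1093142 passed against control in both treated groups (log2 change -0.39 and -0.38), and PLEOSDRAFT_1060345 (-0.44) and PLEOSDRAFT_1063335 (-0.34) in BBP with PB.

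The other 3 GT2 genes are not annotated as chitin synthases. PLEOSDRAFT_1034058, annotated as the enzyme that makes dolichyl-phosphate mannose, the mannose donor for glycosylation in the endoplasmic reticulum, was at 56.9, 72.7 and 72 FPKM in control, 47.1, 44.6 and 44.2 with BBP, and 47.7, 49.8 and 47.4 with BBP and PB. It fell by 0.46 ± 0.0915 with BBP (adjusted p = 0.00894), 1 of the 2 member calls with BBP that held under every alternative. Its change in BBP with PB against control was -0.26 (adjusted p = 0.0441), and left out 1 at a time, all libraries but BBP replicate 2 and control replicate 1 took that call away (adjusted p = 0.0546 to 0.142). PLEOSDRAFT_1089785, annotated for dolichyl-phosphate glucose, fell by 0.57 ± 0.102 in BBP with PB against control (adjusted p = 0.00174) and by 0.40 ± 0.102 on adding PB (adjusted p = 0.0215). The second call was lost without BBP replicate 1 or 3 or BBP with PB replicate 1 or 2 (adjusted p = 0.0591 to 0.0896). PLEOSDRAFT_1064662, the most expressed GT2 gene, has no enzyme number and was at 576, 585 and 500.1 FPKM in control and 717, 714 and 696 with BBP and PB. It rose by 0.56 ± 0.132 in that comparison (adjusted p = 0.0078).

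The 2 GT48 genes, for the catalytic subunit of beta-1,3-glucan synthase, did not move together. PLEOSDRAFT_1091186 was at 157, 170.3 and 154 FPKM in control, 171, 136 and 181 with BBP, and 232, 248 and 224 with BBP and PB. The PB libraries were above all others and the remaining groups overlapped. It rose by 0.64 ± 0.136 on adding PB (adjusted p = 0.00988) and by 0.76 ± 0.136 against control (adjusted p = 0.00188). PLEOSDRAFT_1052138 was at 153, 175 and 168 FPKM in control, 155, 136 and 151 with BBP, and 114, 121 and 118 with BBP and PB. Its libraries with PB were below all others, but its change against control of -0.28 ± 0.102 missed the threshold (adjusted p = 0.0505) and passed without BBP replicate 2 (adjusted p = 0.034) or control replicate 3 (adjusted p = 0.0483), with DESeq2 (adjusted p = 0.0177), and when scaled by total counts alone (-0.50, adjusted p = 0.00396). Of the genes that supply UDP-glucose, PLEOSDRAFT_152654, annotated as a phosphoglucomutase, rose by 0.93 ± 0.142 on adding PB (adjusted p = 0.00194), from 12.5, 16.1 and 11 to 21.9, 22.6 and 25.7 FPKM. PLEOSDRAFT_1056178, the UDP-glucose pyrophosphorylase gene that makes the glucan precursor itself, was not called.

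**Figure D2:**
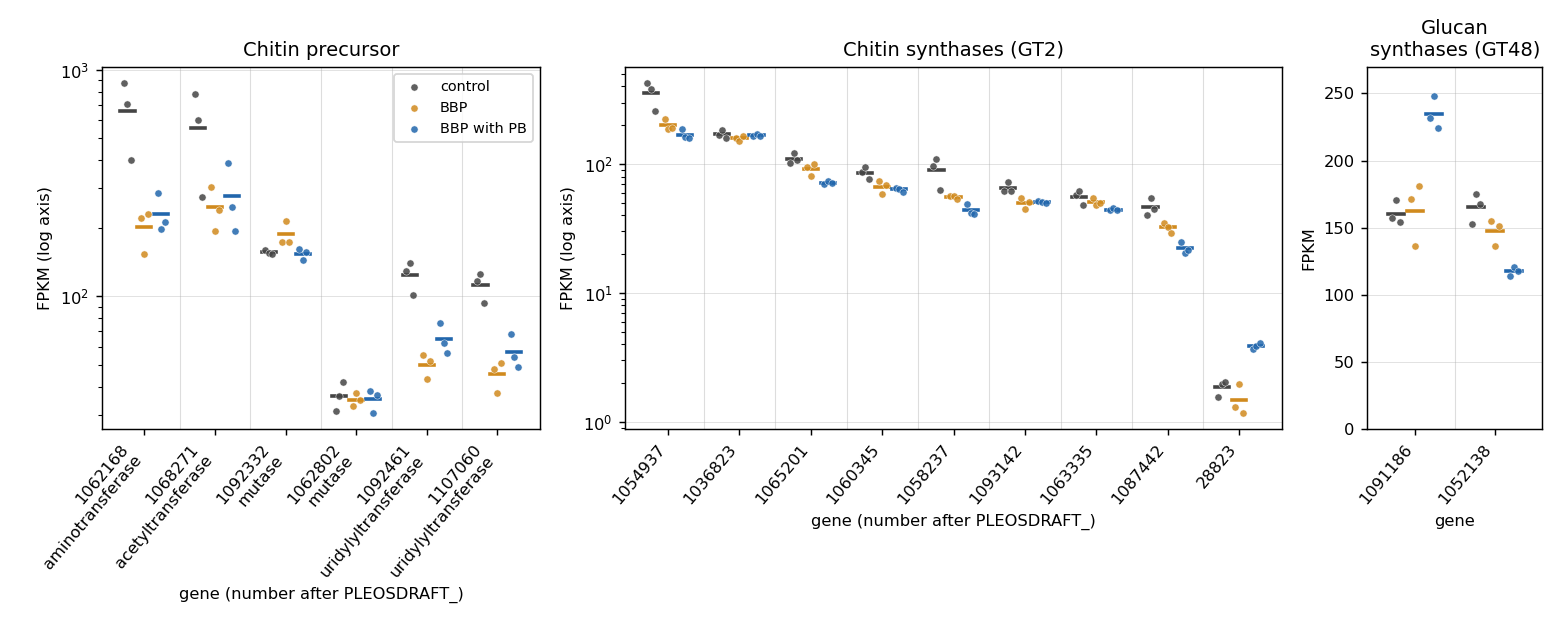
FPKM of the chitin precursor genes (left, log axis), the 9 GT2 genes with the chitin synthase number (middle, log axis) and the 2 GT48 genes (right, linear axis from 0), with 1 point per library, a bar at the mean of each group of 3, and groups by colour. The aminotransferase PLEOSDRAFT_1062168 and both uridylyltransferase genes have all control libraries above all treated ones, and of the GT48 genes PLEOSDRAFT_1091186 is highest and PLEOSDRAFT_1052138 lowest with BBP and PB.

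CE4, the chitin deacetylase family, held the most strongly expressed member and moved in both directions at once. On adding PB to BBP, 4 of its 11 genes rose and 2 fell (54.5%, beside 20.4% of all tested genes). In BBP with PB against control 6 of 11 changed (54.5%, beside 41.1%), 3 in each direction. Scaled by total counts alone, 3 rose and 5 fell there. The summed level of the family was 3443 to 4188 FPKM in control, 3363 to 3810 with BBP and 3956 to 4206 with BBP and PB, so that both treated groups overlapped control. The leading gene, PLEOSDRAFT_1067159, ranked 32 of all genes by mean level, was at 1282, 1483 and 2282 FPKM in control, 1949, 1694 and 1921 with BBP, and 1661, 1793 and 2019 with BBP and PB. The groups overlapped and it was not called in any comparison, with adjusted p = 0.159 to 0.791. Control replicate 3 held its highest value, and without it the gene passed with BBP (0.49, adjusted p = 0.0331) and with BBP and PB (0.57, adjusted p = 0.00834) against control.

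A group of CE4 genes was higher with PB. PLEOSDRAFT_1057207 was at 293, 323 and 279.9 FPKM in control, 274, 252 and 237 with BBP, and 580.5, 608 and 536 with BBP and PB. It rose by 1.28 ± 0.119 on adding PB (adjusted p = 0.000144) and by 1.15 ± 0.118 against control (adjusted p = 7.91e-05), while its change with BBP alone, -0.13 ± 0.117, was not called. PLEOSDRAFT_1113735 was at 36.9, 43.2 and 44.1 FPKM in control, 46.0, 72 and 41.5 with BBP, and 177, 160 and 206 with BBP and PB. It rose by 1.87 ± 0.196 on adding PB (adjusted p = 0.000246) and by 2.34 ± 0.2 against control (adjusted p = 2.46e-05). For both genes every library with PB was above every library without it.

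PLEOSDRAFT_1106007 rose at each step, from 200.1, 182 and 144 FPKM in control to 259, 347 and 241 with BBP and 520.2, 531 and 547 with BBP and PB. No group overlapped another. Its log2 change was 0.78 ± 0.183 with BBP (adjusted p = 0.0179), lost without control replicate 2 (0.77, adjusted p = 0.0607), then 1.02 ± 0.184 on adding PB (adjusted p = 0.00445), and 1.80 ± 0.188 in BBP with PB against control (adjusted p = 8.52e-05). PLEOSDRAFT_1103007 rose by 0.49 ± 0.131 on adding PB (adjusted p = 0.0262), a call lost without BBP replicate 2 or 3 or any library with PB (adjusted p = 0.055 to 0.089).

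Other CE4 genes fell. PLEOSDRAFT_175606 was at 126, 160.5 and 183 FPKM in control, 117, 89.9 and 109 with BBP, and 23.3, 26.3 and 25.3 with BBP and PB. It fell by 1.97 ± 0.136 on adding PB (adjusted p = 5.25e-05) and by 2.43 ± 0.139 against control (adjusted p = 2.16e-06). Its change with BBP alone, -0.46 ± 0.131 (adjusted p = 0.0388), was lost in 7 of the 9 fits without 1 library (adjusted p = 0.0567 to 0.0925) and held without BBP replicate 1 or control replicate 1. PLEOSDRAFT_1063706 was at 727, 590.1 and 505 FPKM in control, 388, 286 and 258 with BBP, and 352, 281 and 287 with BBP and PB, so both treated groups lay below control and overlapped each other. It fell by 0.88 ± 0.213 with BBP (adjusted p = 0.0199), a call lost without BBP replicate 2 or 3 (adjusted p = 0.0573 and 0.0628), and by 0.79 ± 0.213 in BBP with PB against control (adjusted p = 0.0143), lost without BBP with PB replicate 2 or 3 (adjusted p = 0.0547 and 0.0571). PLEOSDRAFT_1078467 was at 196, 209 and 182 FPKM in control, 235, 189.9 and 227 with BBP, and 122 ± 9.34 (mean ± SD, n = 3) with BBP and PB, below every other library. It fell by 0.73 ± 0.126 on adding PB (adjusted p = 0.00362).

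Adjacent CE4 genes included both rises and falls. In the order of the deposited positions, 10 pairs of members were direct neighbours, 9 of them of the same family, and 2 runs of 3 adjacent genes were CE4. In the run of PLEOSDRAFT_1067159, PLEOSDRAFT_1078467 and PLEOSDRAFT_1113735, on the same strand, the log2 change on adding PB was 0.08 (not called), -0.73 and 1.87. In the run of PLEOSDRAFT_1103007, PLEOSDRAFT_1063706 and PLEOSDRAFT_27283, the first gene rose by 0.49 and the others were not called.

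**Figure D3:**
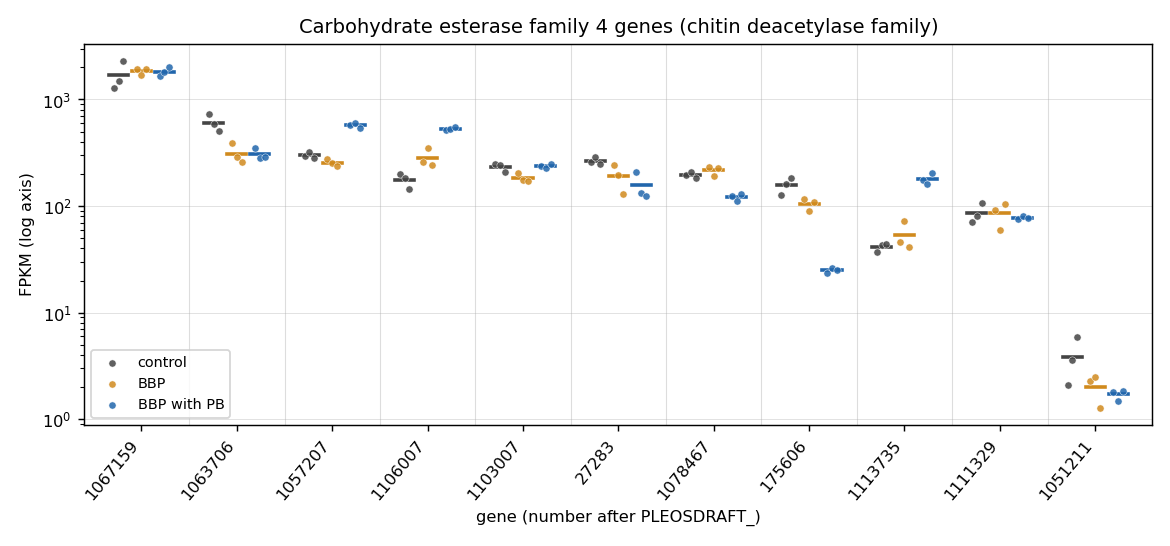
FPKM (log axis) of the 11 CE4 genes in order of mean level, with 1 point per library, a bar at the mean of each group of 3, and groups by colour. PLEOSDRAFT_1057207, PLEOSDRAFT_1106007 and PLEOSDRAFT_1113735 have their highest values with BBP and PB, while PLEOSDRAFT_175606 has its lowest there, near 25 FPKM.

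Chitinases of family GH18, which hydrolyse chitin, changed in both directions, and most were weakly expressed. Of 9 tested genes, 2 rose and 1 fell with BBP, 1 rose and 2 fell on adding PB, and 2 rose and 3 fell in BBP with PB against control. These were 33.3%, 33.3% and 55.6%, beside 18.4%, 20.4% and 41.1% of all tested genes. Scaled by total counts alone, 2 fell and no rise was called with BBP. PLEOSDRAFT_50812, the most expressed, was at 271, 305 and 97.3 FPKM in control, 101, 63.7 and 98.7 with BBP, and 110 ± 19.4 (mean ± SD, n = 3) with BBP and PB. Control replicate 3 lay among the treated libraries, so the groups overlapped. Its change with BBP, -1.27 ± 0.382 (adjusted p = 0.0452), was lost in each fit without 1 library (adjusted p = 0.0614 to 0.141) other than that without control replicate 3 (-1.65, adjusted p = 0.00157). In BBP with PB against control it was not called (-0.83, adjusted p = 0.104), but passed without control replicate 3 (-1.21, adjusted p = 0.00215).

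The GH18 gene PLEOSDRAFT_696 stepped up from 8.55, 11.6 and 12.7 FPKM in control to 15.4, 14.4 and 16.3 with BBP and 19.9, 27.6 and 22.2 with BBP and PB, without overlap. It rose by 1.30 ± 0.156 in BBP with PB against control (adjusted p = 0.00018) and by 0.70 ± 0.154 on adding PB (adjusted p = 0.0116). Its rise with BBP, 0.61 ± 0.154 (adjusted p = 0.0243), was lost without BBP replicate 1 or 3 or control replicate 1 or 2 (adjusted p = 0.0596 to 0.0657). PLEOSDRAFT_1076572 was at 7.21, 8.63 and 5.71 FPKM in control and between 1.28 and 2.08 with BBP and PB, and fell by 1.96 ± 0.381 (adjusted p = 0.00287). PLEOSDRAFT_1098006 fell by 1.01 ± 0.178 in the same comparison (adjusted p = 0.00168), from 7.54, 7.39 and 7.89 to 3.18, 3.56 and 3.03 FPKM.

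Other GH18 calls were near the threshold. PLEOSDRAFT_1111350 was at 7.80, 11.9 and 17.7 FPKM in control and 26.3, 14.4 and 42.9 with BBP, which overlap. Its rise with BBP of 1.29 ± 0.362 (adjusted p = 0.035) held only without BBP replicate 2 or control replicate 3 among the fits without 1 library (adjusted p = 0.0517 to 0.105 in the other 7). PLEOSDRAFT_1067912 had a log2 change of -1.08 on adding PB (adjusted p = 0.0433), held only without BBP replicate 2 or control replicate 3 (adjusted p = 0.0504 to 0.139 in the other 7), and of -0.63 without BBP replicate 3.

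Beta-N-acetylhexosaminidases of family GH20 trim the short products of chitinases to single sugars. PLEOSDRAFT_1094009 was at 65.5, 68.6 and 179.7 FPKM in control, 62.8, 58.2 and 53.8 with BBP, and 20.8, 22.9 and 27.9 with BBP and PB. The PB libraries were below all others, and control replicate 3 stood far above the rest. It fell by 1.90 ± 0.324 in BBP with PB against control (adjusted p = 0.00143), or by 1.32 without control replicate 3. On adding PB to BBP its mean fell 2.44-fold (adjusted p = 0.0273), which was lost without BBP replicate 1 or 3 or any library with PB (adjusted p = 0.0523 to 0.0963).

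GH16 was the largest family, with 28 genes of which 25 were tested. It holds endo-beta-glucanases and the transglycosidases that link chitin to glucan in yeast. With BBP 5 fell and 20 were not called. On adding PB 1 rose and 3 fell, and in BBP with PB against control 2 rose and 8 fell. In all, 5, 4 and 10 of the 25 were called, beside 18.4%, 20.4% and 41.1% of all tested genes. The GH16 share called was thus near that of the transcriptome or below it. Of all tested genes 8.33%, 10.5% and 21.2% fell in these comparisons. Scaled by total counts alone, 11 GH16 genes fell and none rose in BBP with PB against control. The summed level was 1793 to 1854 FPKM in control, 1301 to 1540 with BBP and 1266 to 1294 with BBP and PB, without overlap. The separation of BBP from the other groups rested on 1 gene, PLEOSDRAFT_1072937, left out here after its values were seen. Without it the sums were 1439 to 1623, 1291 to 1468 and 1263 to 1291 FPKM. BBP then overlapped control and met BBP with PB, while BBP with PB still lay below control. These sums carry only the depth and length scaling of FPKM. Scaled by total counts alone, the median log2 change of all tested genes was -0.26 in BBP with PB against control.

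The steepest change of any member was in GH16. PLEOSDRAFT_1072937 was at 371, 231 and 261 FPKM in control, 72.2, 9.96 and 89.2 with BBP, and 2.76, 2.91 and 3.40 with BBP and PB. The groups did not overlap, and the BBP libraries were widely spread. It fell by 6.39 ± 0.742 in BBP with PB against control (adjusted p = 0.000155) and by 4.14 ± 0.671 on adding PB (adjusted p = 0.00264). Its fall with BBP was 2.25 ± 0.61 (adjusted p = 0.0311), and that call was lost without BBP replicate 1, BBP with PB replicate 3, control replicate 1 or control replicate 2 (adjusted p = 0.0509 to 0.0713).

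PLEOSDRAFT_1057449 was at 67.4, 77.1 and 57.1 FPKM in control, 30.8, 32.1 and 36.1 with BBP, and 22.4, 28.5 and 26.2 with BBP and PB. It fell by 0.93 ± 0.147 with BBP (adjusted p = 0.00318), the second of the member calls with BBP that held under every alternative, and its mean fell 2.61-fold in BBP with PB against control (adjusted p = 0.000233). PLEOSDRAFT_1040267, at a low level, fell by 1.00 ± 0.239 with BBP (adjusted p = 0.0192), from 8.04, 7.61 and 12.1 to 5.14, 3.01 and 4.67 FPKM. PLEOSDRAFT_1053615, the most expressed GH16 gene, was at 167, 159.5 and 154 FPKM in control and 194, 186 and 165 with BBP and PB, which overlap. Its rise of 0.39 ± 0.122 (adjusted p = 0.0289) was lost without BBP with PB replicate 1 or 2 or control replicate 2 or 3 (adjusted p = 0.0648 to 0.106) and when scaled by total counts alone (0.18, adjusted p = 0.207).

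Few genes of the remaining beta-glucan families were called. GH72 enzymes elongate beta-1,3-glucan chains at the cell surface, and PLEOSDRAFT_1062416 was the most expressed glycoside hydrolase among the members, at 571, 596 and 579 FPKM in control, 528, 381 and 410.2 with BBP, and 456, 445 and 387 with BBP and PB. All treated libraries were below all control libraries, yet it was not called (log2 change -0.30 ± 0.145 and -0.23 ± 0.145, adjusted p = 0.17 and 0.229), and passed in BBP with PB when scaled by total counts alone (-0.44, adjusted p = 0.0236). The GH17 glucanase gene PLEOSDRAFT_1055491 was at 277, 283 and 268 FPKM in control and 324, 361 and 325 with BBP and PB, and rose by 0.49 ± 0.117 (adjusted p = 0.00804), a call lost when scaled by total counts alone (0.28, adjusted p = 0.0569). The most expressed GH30 and GH55 genes, PLEOSDRAFT_1114125 and PLEOSDRAFT_1061484, were not called in any comparison. The other GH30 gene, PLEOSDRAFT_37892, was at 2.66, 2.45 and 1.98 FPKM with BBP and 1.13, 0.924 and 1.46 with BBP and PB, which do not overlap. It fell by 0.90 ± 0.274 on adding PB (adjusted p = 0.0439), a call that held only without control replicate 1 or 3 among the fits without 1 library (adjusted p = 0.0571 to 0.141 in the other 7).

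GH71 enzymes cut alpha-1,3-glucan, the outer wall glucan of many basidiomycetes. PLEOSDRAFT_1079320 was at 6.06, 5.46 and 9.30 FPKM in control, 8.20, 8.88 and 9.01 with BBP, and 9.28, 15.0 and 15.1 with BBP and PB. It rose by 1.13 ± 0.23 in BBP with PB against control (adjusted p = 0.00365), although BBP with PB replicate 1 lay within the range of the control libraries. In all, 2 of 4 tested GH71 genes rose in that comparison, beside 19.9% of all tested genes that rose. The other 2 fell when scaled by total counts alone.

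GH92 alpha-mannosidases trim mannose from glycans. Of 5 tested genes 4 fell in BBP with PB against control, all at low levels, beside 21.2% of all tested genes that fell. PLEOSDRAFT_1110177 was at 3.34, 4.78 and 4.4 FPKM in control and 1.06, 1.30 and 1.37 with BBP and PB, and fell by 1.53 ± 0.285 (adjusted p = 0.00233). PLEOSDRAFT_1040697 fell by 1.23 ± 0.279 (adjusted p = 0.00649), PLEOSDRAFT_160022 by 1.27 ± 0.333 (adjusted p = 0.0128) and PLEOSDRAFT_1063499 by 0.91 ± 0.222 (adjusted p = 0.0091). The call of PLEOSDRAFT_160022 was lost without BBP with PB replicate 3 (adjusted p = 0.0527). PLEOSDRAFT_1040099, the most expressed GH92 gene, was not called.

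The GH76 gene PLEOSDRAFT_1064904, of a family of endo-alpha-mannanases, was at 25.8, 35.8 and 32.0 FPKM in control, 33.3, 34.5 and 48.2 with BBP, and 9.44, 12.6 and 11 with BBP and PB. It fell by 1.71 ± 0.174 on adding PB (adjusted p = 0.00022) and by 1.28 ± 0.173 against control (adjusted p = 0.000362). The GH85 gene PLEOSDRAFT_1092656 and the family 50 binding module gene PLEOSDRAFT_1088809 were not called. Without the 13 members outside the chitin and glucan families, 70 were tested, of which 4 rose and 10 fell with BBP, 8 rose and 10 fell on adding PB, and 12 rose and 19 fell in BBP with PB against control. Of these 70, 20.0%, 25.7% and 44.3% were called, beside 18.4%, 20.4% and 41.1% of all tested genes.

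**Figure D4:**
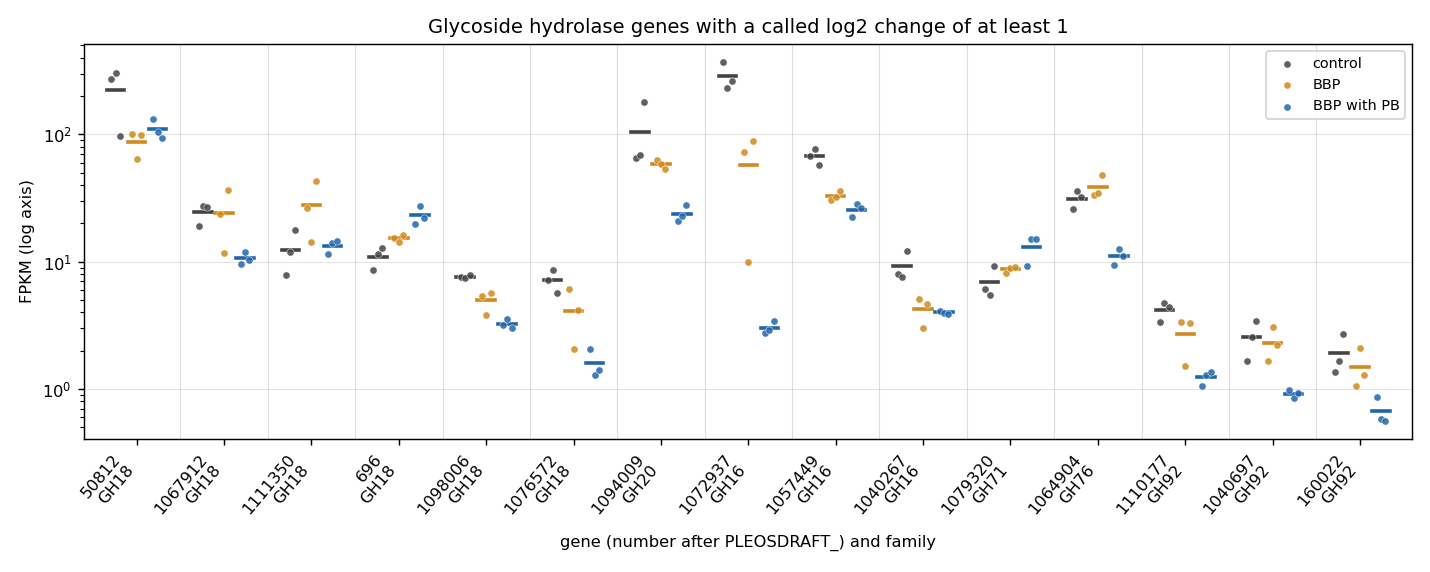
FPKM (log axis) of the glycoside hydrolase genes with a called log2 change of at least 1 in any comparison, by family, with 1 point per library, a bar at the mean of each group of 3, and groups by colour. PLEOSDRAFT_1072937 runs from 371 FPKM in a control library to 2.76 in a library with BBP and PB, and PLEOSDRAFT_696 and PLEOSDRAFT_1079320 run the other way.

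Further cell wall genes outside these families were taken by enzyme number, orthology number or ontology text. Of 136 tested, 14 rose and 16 fell with BBP (22.1%, beside 18.4% of all tested genes), 14 rose and 23 fell on adding PB (27.2%, beside 20.4%), and 26 rose and 45 fell in BBP with PB against control (52.2%, beside 41.1%). Scaling by total counts alone gave 10 and 24, 9 and 27, and 17 and 62. The chitin synthase gene PLEOSDRAFT_1044239, not described as GT2, was at 2.09, 3.06 and 3.86 FPKM in control, 2.73, 2.73 and 2.65 with BBP, and 1.08, 1.05 and 0.651 with BBP and PB, and fell by 1.43 ± 0.254 on adding PB (adjusted p = 0.00418). The beta-glucanase gene PLEOSDRAFT_60667 was at 399, 470.3 and 434 FPKM in control and 279.8, 181 and 182 with BBP, and fell by 0.92 ± 0.182 (adjusted p = 0.00862). Others rose in BBP with PB against control, such as PLEOSDRAFT_1052916 (5.97, adjusted p = 2.56e-06) and PLEOSDRAFT_1064182 (2.97, adjusted p = 4.24e-06). These examples of rises were chosen after their values were seen, and no fit that left out 1 library lost either call.

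Cell wall integrity signalling, the kinase cascade that in yeast answers wall stress, was covered by 9 genes. With BBP 0 of 9 were called by edgeR, beside 18.4% of all tested genes. Of the 9, 1 had an unadjusted p under 0.05, and DESeq2 and limma called 0. On adding PB 2 fell (22.2%, beside 10.5% of all tested genes that fell). In BBP with PB against control 2 fell (22.2%, beside 21.2%). PLEOSDRAFT_1089553, the SLT2-type mitogen-activated kinase at the end of the cascade, was at 299, 359.7 and 434 FPKM in control, 213, 336 and 234 with BBP, and 117, 126 and 136 with BBP and PB. The libraries with PB were below all others. It fell by 0.94 ± 0.175 on adding PB (adjusted p = 0.00517) and by 1.31 ± 0.176 against control (adjusted p = 0.000363). PLEOSDRAFT_162491, of the BCK1 type upstream of SLT2 in the cascade, fell by 1.03 ± 0.23 in BBP with PB against control (adjusted p = 0.00575).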

How the data were processed

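The authors deposited 1 table with raw read counts per gene as whole numbers and FPKM values per gene for the 9 libraries. The tools fastp, HISAT2 and StringTie stand in the submitters' processing notes. Versions, build, annotation, and how and on which strand reads were counted are not given in the sources used, so no coordinates or sequences are printed. All per-sample columns were matched to samples by name.

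A minimum mean of 1 FPKM kept 9399 of 10682 genes. After TMM scaling, edgeR 4.0.16 fitted all 9 libraries and 3 groups in 1 model (quasi-likelihood test, 2-sided, Benjamini-Hochberg adjusted p under 0.05; limma 3.58.1, DESeq2 1.42.0, R 4.3.3). The SE is the size of the log2 change over the root of F. The fit was tested on simulated counts with 9399 genes. For BBP against control it recovered 5 of 50 genes changed by a log2 of 0.5, 41 of 50 at 1 and 50 of 50 at 2. At 1 it recovered 39 of 50 on adding PB and 36 of 50 in BBP with PB against control. Every simulated gene had the same biological coefficient of variation, 0.201, so recovery of genes with a wider spread is not shown. Tables and figures used Python 3.11.15, pandas 2.3.3 and matplotlib 3.10.9.

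The members and gene lists were chosen with earlier results of these data known. The rule for naming took every GT2 and GT48 gene, the most expressed gene of each other family, every member called with a log2 change of at least 1, and of each other list its called genes or, where over 6, the 6 most expressed, of which the text describes a part. It adds further members beyond this rule, such as PLEOSDRAFT_1103007 and PLEOSDRAFT_1063706, chosen after their values were seen. No library was counted as a duplicate, since same-group pairs had a chi-square of 40.6 to 329.3 per degree of freedom. The SE and SD given here reflect the spread between replicate libraries and not counting error alone. A floor of 3 counts would cover counting error only, and PCR copies are not independent molecules.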

Additional observations from a re-analysis of the deposited data

How the results depend on the processing

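With only the 6 libraries compared, BBP called 2 members in place of 15, 879 genes in place of 1730, and 15 other cell wall pathway genes in place of 30. Fits that left out 1 library called 5 to 14 members with BBP, 11 to 27 on adding PB and 32 to 42 in BBP with PB against control. Over all genes these fits called 967 to 1854, 1051 to 2461 and 2877 to 4169, and over the other cell wall pathway genes 19 to 38, 19 to 44 and 50 to 76. Scaling by total counts alone moved calls toward falls, as given with the counts, and over all genes it gave 684 higher and 1108 lower with BBP, 621 and 1327 on adding PB, and 1196 and 3183 in BBP with PB against control. The replicate numbers were not taken as pairs in the main fit. Correlations of deviations ran from -0.152 to 0.206 for same-numbered libraries and from -0.243 to 0.155 for differently numbered ones. Such weak values cannot show whether the cultures were paired. A fit with the replicate block called 11, 19 and 37 members, 1396, 1568 and 3612 genes, and 26, 27 and 59 other cell wall pathway genes. Over all values of named genes under the alternatives, 3037 kept their direction and side of the threshold, 220 lost a call and 73 gained one, and no called change turned its direction. Of the 90 members, 8 were under a mean of 1 FPKM and are not described by a test, and 2 had libraries with 3 counts or fewer.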
